A study of Homo sapiens and Mus musculus with 8 samples.

Results

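The set comprised 9 receptor tyrosine kinase genes that are studied in melanoma (Axl, Mertk, Tyro3, Erbb2, Erbb3, Met, Igf1r, Egfr and Fgfr1) and Gas6, the ligand of the first 3. They were found by gene symbol, ignoring letter case, in the authors' 5 deposited tables of comparisons. Of the 10 genes, 9 had values among the 15966 genes of the mouse tables, and Egfr was not analysed here. RNA-seq had been done on 8 samples of 3 melanoma lines, with 1 sample per group in the labels. The groups used for the set were 4 samples of B16N, a mouse melanoma line: cells exposed to UV and collected at week 2, cells exposed to UV and collected at week 5, a clone labelled as overexpressing Orai1, and untreated control cells (wild type, day 0). The UV samples were labelled wild type as well. The clone, 1 clone only and labelled day 0, had been transfected with CFP-tagged Orai1, which forms the pore of store-operated Ca2+ entry, selected with G418 and sorted before clonal growth. The Orai1 gene itself was not analysed here, and the clone's label was not checked against it. UV exposure and weeks in culture cannot be told apart, nor can Orai1 and the selection of a clone.

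Receptor tyrosine kinases span the cell membrane. A ligand that binds outside brings receptors together, their kinase domains phosphorylate tyrosines inside, and adaptors bound there switch on the RAS-MAPK and PI3K-AKT pathways, which drive growth and survival. Axl, Mertk and Tyro3 form the TAM family, whose ligands are Gas6 and protein S. In human melanoma, high AXL marks a poorly pigmented, invasive state with low MITF, while ERBB3, a receptor of the pigment cell and neural crest lineage that binds neuregulins, signals mainly through its partner ERBB2, since its own kinase is weak. MET binds hepatocyte growth factor and IGF1R binds insulin-like growth factors.

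The mouse tables held 14648 usable genes for UV at 2 weeks, 14821 for UV at 5 weeks and 15041 for the clone. Each gave a log2 fold change against the control, a test statistic and a p-value per gene, with no expression levels or counts, so depth and per-sample values were unknown. Changes below are log2 values of treated over control cells, derived from the authors' deposited tables with the sign turned, each with a standard error (SE) worked out from the deposited statistic. A gene passed when its Benjamini-Hochberg adjusted p, computed over its whole table from the deposited p-values, was under 0.05. With 1 sample per group in the labels, these p-values compare libraries and not conditions, and no change had a replicate check here. The genes were chosen by their known roles and by log2 changes and p-values of these same tables, the falls of Axl and Erbb3 among them. Their values and p-values are therefore a description and no independent test.

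Axl and Erbb3 were the members with values of their own that passed, and both were lower in UV-exposed cells at 2 and 5 weeks and in the Orai1 clone. Axl stood furthest from the control in the clone, and the changes of Erbb3 did not pass a test of their difference. Of the 9 measured members, 3 passed in each comparison, and the third was Fgfr1, whose values were identical to those of another gene. Over all genes, 7.67% passed at 2 weeks of UV, 4.78% at 5 weeks and 22.0% in the clone. Among genes with values of their own in all 3 mouse tables, 53 of 10077 (0.526%) passed as lower in every one, Axl and Erbb3 among them, and 31 (0.308%) passed as higher in every one. The 3 comparisons used 1 control sample, and a value particular to that sample would appear in each.

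**Figure D1:**
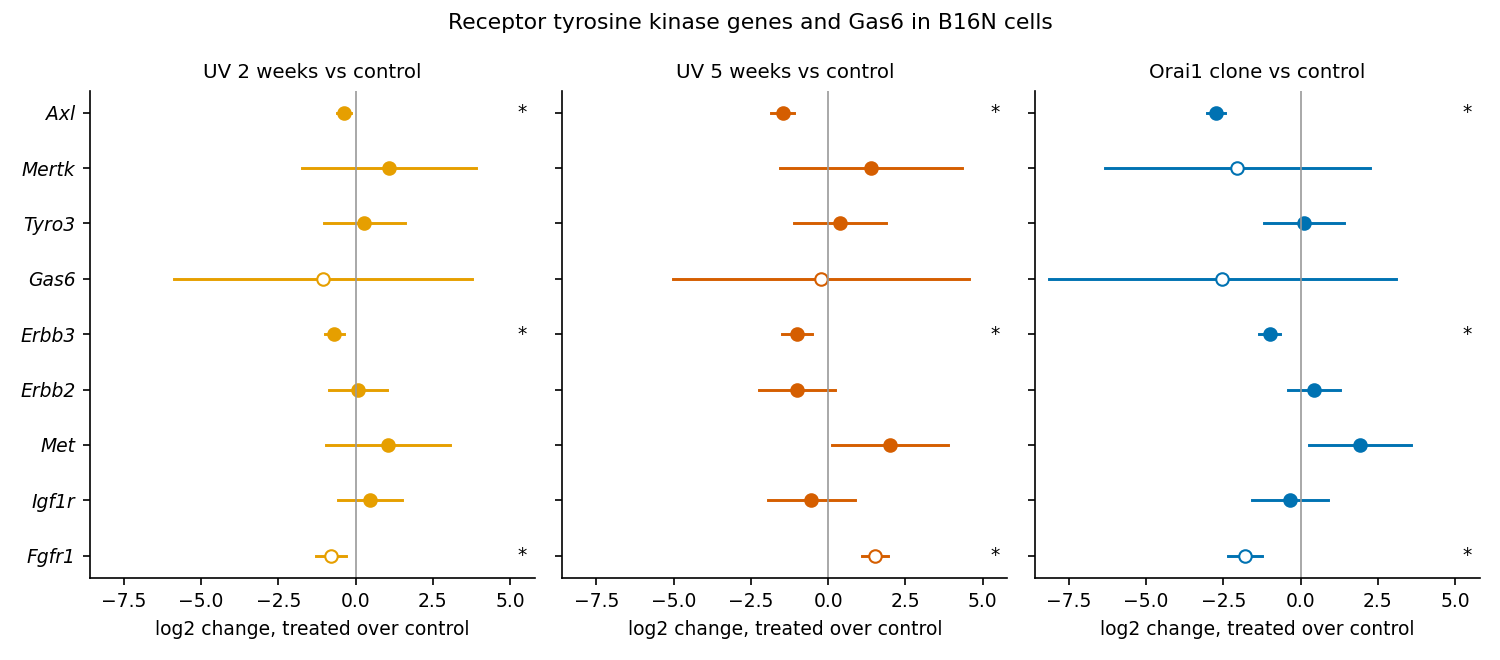
Log2 change of treated over control cells (x axis) for the 9 measured genes of the set (y axis) in B16N after UV for 2 weeks, after UV for 5 weeks and in the Orai1 clone. Lines are 95% intervals from the SE, open circles mark values identical to those of another symbol, and asterisks mark an adjusted p under 0.05. Axl and Erbb3 lie left of 0 with short intervals in all 3 panels, while Fgfr1, drawn open, lies right of 0 at 5 weeks only.

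Axl encodes the TAM receptor with the strongest links to melanoma invasion and drug tolerance. After 2 weeks of UV its log2 change was -0.37 (SE 0.11), or 0.771 times the control level, with an adjusted p = 0.0152 from the authors' deposited table. After 5 weeks the authors' deposited table gave -1.48 (SE 0.19, adjusted p = 2.20e-12), or 0.360 times the control level. For the clone it gave -2.75 (SE 0.15), or 0.149 times the control level, and the adjusted p = 6.51e-74 was the lowest of the set in the authors' deposited tables. At 2 weeks, of 6029 genes with values of their own and an SE at most 0.3, 540 had a lower change than Axl. At 5 weeks, 2 of 5241 such genes had a lower change, and in the clone 8 of 6079 did.

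The Axl changes also differed from one another. The change was lower at 5 than at 2 weeks of UV by a difference of -1.10 (95% interval -1.53 to -0.67, adjusted p = 9.07e-05 by a normal test over the 14083 genes common to both of the authors' deposited tables). By the same test on the authors' deposited tables it was lower in the clone than after 5 weeks of UV by a difference of -1.27 (95% interval -1.74 to -0.80, adjusted p = 9.74e-06), and lower in the clone than after 2 weeks by -2.37 (95% interval -2.73 to -2.01, adjusted p = 2.57e-34). Over all genes, 3.33% differed between 5 and 2 weeks, 5.35% between the clone and 5 weeks, and 11.7% between the clone and 2 weeks. A control value common to both changes cancels in such a difference. From lowest to highest, the order of Axl was the clone, 5 weeks and 2 weeks.

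The other TAM family members could not be followed with the same precision. Tyro3 had a log2 change of 0.28 at 2 weeks (SE 0.67), 0.38 at 5 weeks (SE 0.76) and 0.11 in the clone (SE 0.66) in the authors' deposited tables. None passed, with adjusted p-values of 0.959, 0.965 and 0.961, and at its SE a change of 1.93 at 2 weeks, 2.30 at 5 weeks and 1.69 in the clone would have been needed to pass. A Tyro3 fall as large as that of Axl in the clone lies below its 95% interval there, whose lower end was -1.19. Mertk, best known for the uptake of dying cells by macrophages, stood at 1.08 at 2 weeks (SE 1.44) and at 1.38 at 5 weeks (SE 1.5), with adjusted p-values of 0.951 and 0.915. These intervals covered changes from -1.74 to 3.90 and from -1.56 to 4.33, so rises and falls of more than 2-fold were both within them. In the clone the Mertk row was identical to that of Mutyh, a DNA repair gene, and its value of -2.05 (SE 2.18) could not be assigned to either gene.

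Gas6, the TAM ligand, had no value of its own in any mouse table. Its row was identical to those of 9 other symbols at 2 weeks, among them Acta2 and Ctsf, to those of 2 others at 5 weeks and to those of 13 others in the clone. Its SE was 2.46 at 2 weeks, 2.44 at 5 weeks and 2.87 in the clone, larger than those of 86.8%, 84.4% and 88.2% of all rows. To pass at this SE, a log2 change of 7.12 at 2 weeks, 7.42 at 5 weeks and 7.30 in the clone was needed. The row did not pass in any comparison, and neither its values nor its SE can be assigned to Gas6 alone. Pros1, which encodes protein S, the second TAM ligand, had values of its own. Its log2 change was 0.26 at 2 weeks (SE 0.29), -0.56 at 5 weeks (SE 0.38) and 0.0087 in the clone (SE 0.29) in the authors' deposited tables, and none passed (adjusted p = 0.885, 0.630 and 0.989).

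Erbb3, the neuregulin receptor, was lower in all 3 treated samples. At 2 weeks of UV the authors' deposited table gave a log2 change of -0.69 (SE 0.16, adjusted p = 8.12e-04), or 0.620 times the control level. At 5 weeks the authors' deposited table gave -1.02 (SE 0.24, adjusted p = 0.00178), or 0.495 times the control level. For the clone the authors' deposited table gave -1.00 (SE 0.17, adjusted p = 1.44e-07), or 0.50 times the control level. The changes of Erbb3 did not differ between treated samples beyond their error. The difference was -0.33 between 5 and 2 weeks (95% interval -0.90 to 0.25), 0.017 between the clone and 5 weeks (-0.57 to 0.60) and -0.31 between the clone and 2 weeks (-0.77 to 0.15), and none passed. At these errors a difference of 0.923, 0.898 and 0.653 would have been needed to pass, in that order.

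Erbb2, the partner that lends Erbb3 its kinase activity, did not pass. Its log2 change was 0.067 at 2 weeks (SE 0.48, adjusted p = 0.983), -1.00 at 5 weeks (SE 0.63, adjusted p = 0.572) and 0.44 in the clone (SE 0.43, adjusted p = 0.611) in the authors' deposited tables. The value at 5 weeks was as low as that of Erbb3, but its interval ran from -2.23 to 0.23. The widest contrast for Erbb2, between the clone and 5 weeks, was 1.44 (95% interval -0.06 to 2.93) and did not pass.

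Met, the hepatocyte growth factor receptor, had positive values throughout, with wide errors. Its log2 change was 1.05 at 2 weeks (SE 1.02, adjusted p = 0.833), 2.01 at 5 weeks (SE 0.95, adjusted p = 0.308) and 1.93 in the clone (SE 0.84, adjusted p = 0.0886) in the authors' deposited tables. The unadjusted deposited p was 0.0352 at 5 weeks and 0.0223 in the clone, and a change of 2.89 or 2.14 would have been needed to pass over all genes. The 95% interval in the clone ran from 0.27 to 3.58, but it was not adjusted over all genes, and Met did not pass there. A difference between Met and Axl was not tested. Igf1r, the receptor of insulin-like growth factors, stood at 0.46 at 2 weeks (SE 0.53), -0.54 at 5 weeks (SE 0.71) and -0.34 in the clone (SE 0.63) in the authors' deposited tables. None passed, and each of the 3 intervals spanned 0.

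**Figure D2:**
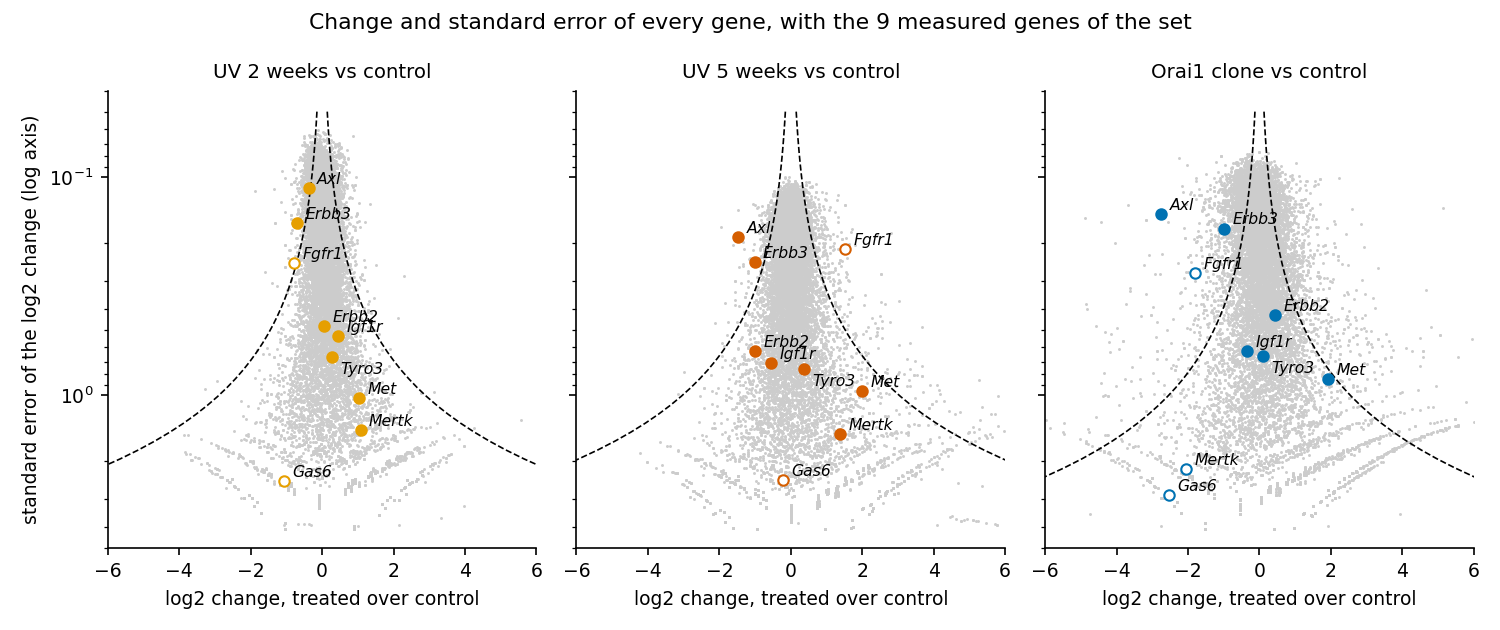
Log2 change of treated over control cells (x axis) against its SE (y axis, log axis, small errors at the top) for every gene of the 3 mouse tables in grey and the 9 measured genes of the set in colour, open where values were shared. Dashed curves mark the change at which a gene passed, and the x axis ends at 6 on each side. Axl, Erbb3 and the shared Fgfr1 row lie outside the curves near the top, while the other 6 genes lie lower and between them, Met close to the right curve in the clone.

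Precision differed widely within the set. Axl had an SE between 0.11 and 0.19 and Erbb3 one between 0.16 and 0.24, whereas Erbb2, Igf1r, Tyro3, Met and Mertk ranged from 0.43 for Erbb2 in the clone to 1.5 for Mertk at 5 weeks where the values were their own. A 2-fold change, 1 on the log2 scale, was below what any of these 5 genes needed to pass in any comparison, the least being 1.09 for Erbb2 in the clone. Regardless of p, 3, 5 and 5 of the 9 measured members were at least 2-fold from the control at 2 weeks, 5 weeks and in the clone, where 12.7%, 14.2% and 22.2% of all genes were. Of these, 0, 3 and 2 also passed, against 0.348%, 1.81% and 6.79% of all genes. They were Axl and Fgfr1 at 5 weeks and in the clone, and Erbb3 at 5 weeks. The median log2 change of the members was 0.067 at 2 weeks, -0.22 at 5 weeks and -1.00 in the clone, against 0.028, 0.025 and 0.072 for all genes. Over the 7, 7 and 6 members with values of their own it was 0.28, -0.54 and -0.12.

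Fgfr1, a fibroblast growth factor receptor gene, had values that were identical in each mouse table to those of Chac1, a glutathione-degrading enzyme gene known to be induced by the integrated stress response. The common values were a log2 change of -0.79 at 2 weeks (SE 0.25, adjusted p = 0.0223), 1.51 at 5 weeks (SE 0.21, adjusted p = 5.43e-10) and -1.79 in the clone (SE 0.28, adjusted p = 2.23e-09) in the authors' deposited tables. Their sign at 5 weeks was opposite to that at 2 weeks, with a difference of 2.30 between the values of the authors' deposited tables (95% interval 1.66 to 2.94, adjusted p = 1.06e-09). The clone stood at -3.31 relative to 5 weeks (95% interval -3.99 to -2.62), which passed, and at -1.00 relative to 2 weeks, which did not, with an adjusted p-value of 0.0552. The human genes FGFR1 and CHAC1 lie on different chromosomes in RefSeq GRCh38.p14, as do MERTK and MUTYH. None of these values can be read as Fgfr1 alone.

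Such rows were common in the tables. Of the 13935 genes that all 3 mouse tables held, 2486 symbols had the same values as another symbol in every one, and 1310 of these had an SE at most 0.5 in all 3. Values of its own do not show that a row carries the right symbol, which was not tested.

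**Figure D3:**
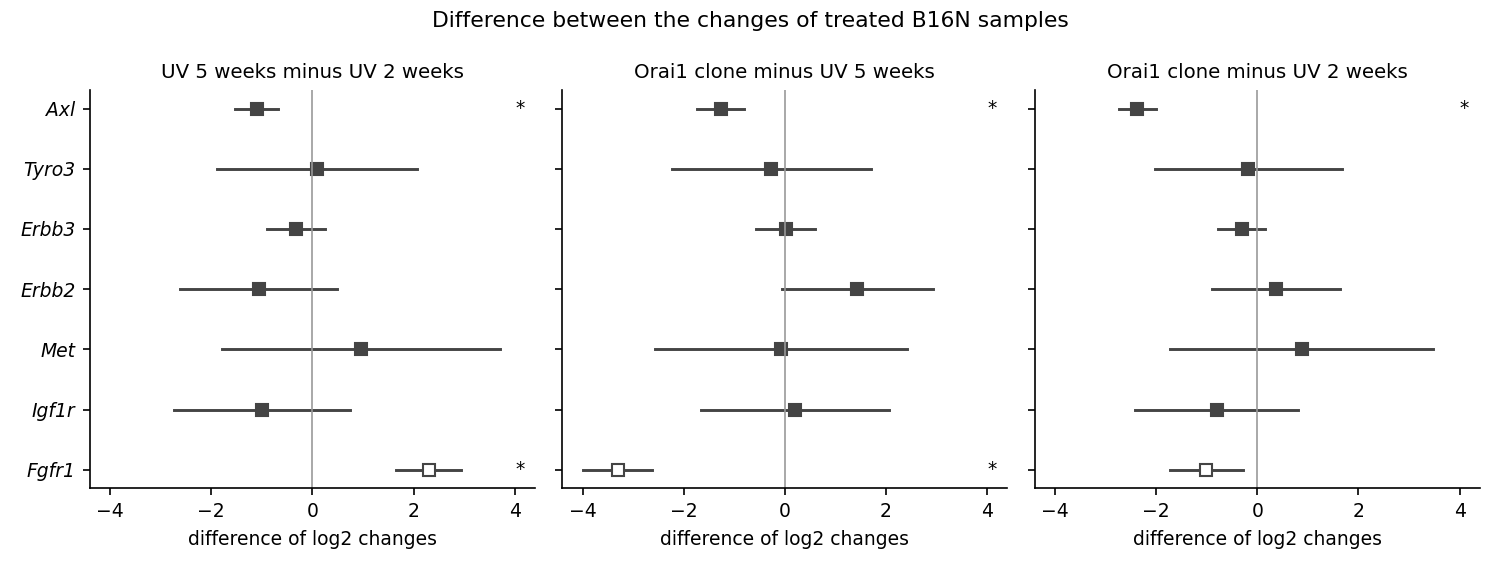
Difference between the log2 changes of 2 treated B16N samples (x axis) for 7 genes of the set (y axis), UV 5 weeks minus UV 2 weeks, Orai1 clone minus UV 5 weeks and Orai1 clone minus UV 2 weeks. Lines are 95% intervals, open squares mark values shared with another symbol, and asterisks mark an adjusted p under 0.05. Axl lies left of 0 in all 3 panels, Erbb3 has intervals that span 0, and the Fgfr1 row lies at 2.30 in the left panel and at -3.31 in the middle one. Mertk and Gas6, with larger errors, are left out.

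Genes around the receptors were read from 7 lists, using rows with values of their own. The lists held 50 other receptor tyrosine kinases, 36 ligands, 35 adaptors and signal carriers, 29 brakes, 13 sheddases and inhibitors, 8 IGF binding proteins and 21 regulators, and the counts below are of those so measured. Adaptors and signal carriers had 5 of 23 members lower and none higher at 2 weeks of UV, with a median log2 change of -0.18. They had 1 lower and none higher at 5 weeks (median -0.16), and 8 lower and 3 higher in the clone (median -0.42). The median log2 change of all genes was 0.028, 0.025 and 0.072 in the 3 comparisons. The shares of all genes that passed as lower were 4.55%, 1.71% and 11.6%, and as higher 3.13%, 3.07% and 10.3%. These shares include genes with a wide SE, whereas 19 of the 23 adaptors and signal carriers had one of at most 0.5 in each comparison. With the adjustment run over genes of such an SE alone, 772 of 9068, 286 of 8540 and 1775 of 9116 passed as lower. As higher, 541, 396 and 1495 passed. At 2 weeks Pik3r1, the regulatory subunit of PI3-kinase, was lower (-0.56, SE 0.14), and so was Pik3cb, a catalytic subunit (-0.39, SE 0.13). Pik3cb did not pass once the median change was set to 0. In the clone the adaptor genes Nck2 (-1.16, SE 0.39) and Gab1 (-0.86, SE 0.18), which docks on Met and Egfr, were lower, and Shc1, an adaptor that links receptors to RAS, was higher (0.81, SE 0.26).

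Feedback brakes on receptor signalling had 1 of 21 members higher and none lower at 2 weeks, and 2 lower and none higher at 5 weeks. In the clone 6 were lower and 1 was higher. Of all genes, 4.55%, 1.71% and 11.6% passed as lower in the 3 comparisons, and 3.13%, 3.07% and 10.3% as higher. These shares include genes with a wide SE, whereas 16, 16 and 18 of the 21 brakes had one of at most 0.5. With the adjustment run over genes of such an SE alone, 772 of 9068, 286 of 8540 and 1775 of 9116 passed as lower. As higher, 541, 396 and 1495 did. Dusp4, a phosphatase that switches off MAP kinases, was higher at 2 weeks (0.60, SE 0.13) and lower in the clone (-0.60, SE 0.15). Dusp6, the ERK phosphatase, stood at -0.85 at 5 weeks (SE 0.15, adjusted p = 2.01e-06) and at -0.81 in the clone (SE 0.12, adjusted p = 8.62e-10) in the authors' deposited tables. Spry2, an inhibitor of RAS activation by receptors, stood at -0.75 at 5 weeks (SE 0.21) and at -1.36 in the clone (SE 0.18), and passed in both. In the clone Spry4 was lower as well (-1.47, SE 0.43), while Spred2, another inhibitor of the pathway, was higher (1.01, SE 0.33). The median log2 changes of the brakes were -0.12, -0.23 and -0.06 in the 3 comparisons, in the order given. Those of all genes were 0.028, 0.025 and 0.072.

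Ligand genes had no member that passed at either UV time, of 9 measured at 2 weeks and 10 at 5 weeks. In the clone 2 of 12 were lower, the Egfr ligand gene Tgfa (-2.41, SE 0.73) and the fibroblast growth factor gene Fgf1 (-0.52, SE 0.19). Pdgfc, which encodes a platelet-derived growth factor, was higher there, with an SE above 1. Other receptor tyrosine kinases had 1 of 12 members lower at 2 weeks, the ephrin receptor gene Epha3 (-1.03, SE 0.14), and none of 13 that passed at 5 weeks. In the clone Ephb2 was lower (-1.49, SE 0.41), Ephb4 was higher (1.32, SE 0.39), and Ret was higher with an SE above 1, of 13 measured. Of all genes, 4.55%, 1.71% and 11.6% passed as lower in the 3 comparisons, and 3.13%, 3.07% and 10.3% as higher.

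Sheddases, which clip receptors and ligands from the cell surface, and their inhibitors had 1 member higher and 1 lower of 9 at 2 weeks, 1 higher and none lower at 5 weeks, and 1 higher and 4 lower in the clone. Adam10, which can release the outer part of Axl and other receptors, was higher at 2 weeks (0.57, SE 0.16). The inhibitor gene Timp2 was lower at 2 weeks (-0.21, SE 0.071), where it did not pass once the median change was set to 0, and lower in the clone (-0.97, SE 0.088). Timp3, an inhibitor of Adam17, was higher at 5 weeks (1.34, SE 0.40). In the clone Adam15 was higher (1.36, SE 0.24), while Adam9 (-0.61, SE 0.12) and Rhbdf2 (-0.57, SE 0.14), a partner of Adam17, were lower. Adam12 was lower there as well, with an SE above 1 but a change many times as large (-7.88, SE 1.05). Of the IGF binding protein list, with 3 genes measured in the clone, Igfbp4 was higher there (0.43, SE 0.10), and so was Igfbp7 with an SE above 1. None of the 2 measured at either UV time passed. Of all genes, 4.55%, 1.71% and 11.6% passed as lower in the 3 comparisons, and 3.13%, 3.07% and 10.3% as higher. Of the 9 sheddases and inhibitors, 8 had an SE at most 0.5 in the clone. With the adjustment run over genes of such an SE alone, 1775 of 9116 passed as lower there and 1495 as higher.

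Of the regulators known to act on these receptor genes, 1 was higher and 1 lower of 16 at 2 weeks, and 1 higher and 2 lower of 17 in the clone. Yap1, a co-activator of Axl transcription in the Hippo pathway, was lower at 2 weeks (-0.26, SE 0.072), and its values of -0.45 at 5 weeks (SE 0.16) and 0.22 in the clone (SE 0.089) did not pass. The AP-1 gene Junb was higher at 2 weeks (0.50, SE 0.14) and in the clone (1.48, SE 0.14), while Jun (-0.51, SE 0.11) and the lineage factor gene Pax3 (-0.51, SE 0.10) were lower in the clone. None of 17 passed at 5 weeks. Of all genes, 4.55%, 1.71% and 11.6% passed as lower in the 3 comparisons, and 3.13%, 3.07% and 10.3% as higher. Mitf, the pigment cell regulator that is low where AXL is high in human melanoma, had positive values in all 3 comparisons and did not pass: 0.38 at 2 weeks (SE 0.51), 0.60 at 5 weeks (SE 0.56) and 0.39 in the clone (SE 0.49) in the authors' deposited tables.

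**Figure D4:**
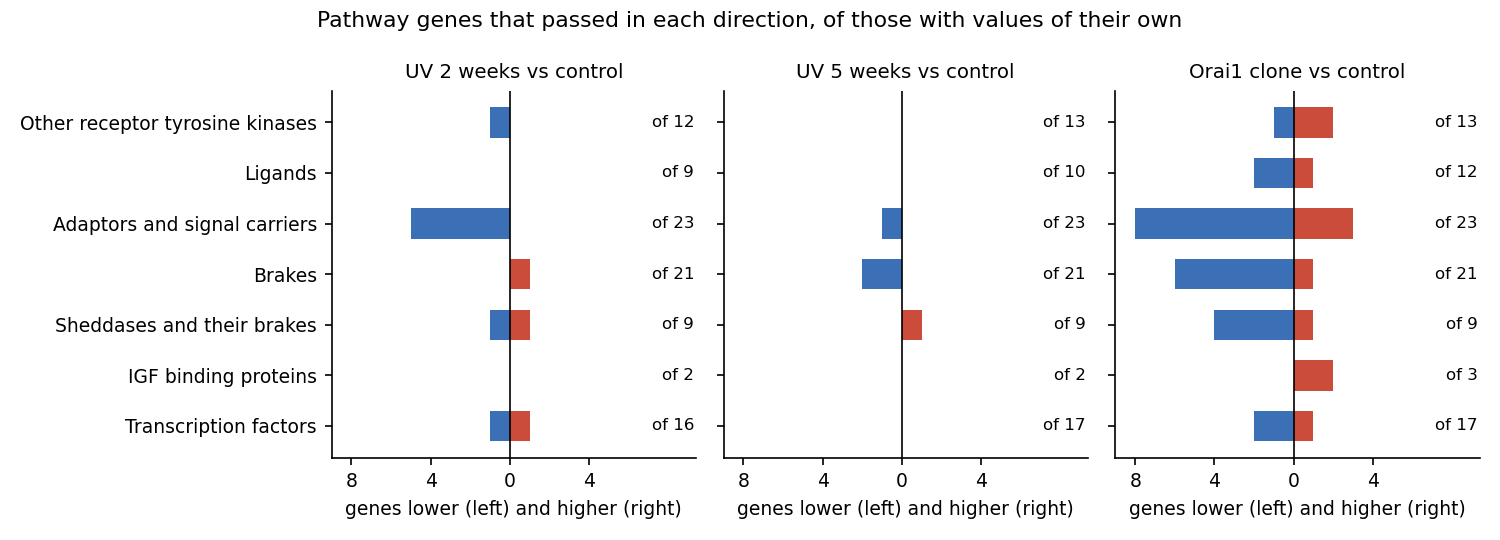
Number of genes that passed as lower (blue, left of 0) and as higher (red, right of 0) in each of 7 lists (y axis) after UV for 2 weeks, after UV for 5 weeks and in the Orai1 clone against the control. The number of genes with values of their own stands at the right of each bar. The longest bars are the 8 lower adaptor and signal carrier genes of 23 and the 6 lower brake genes of 21 in the clone. There 11.6% of all genes passed as lower. With the adjustment run over genes of SE at most 0.5 alone, 1775 of 9116 did.

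The genes whose 3 changes lay nearest to those of Axl, by Euclidean distance among 5196 genes with values of their own and an SE at most 0.3 in every mouse table, were the protease gene Prss23 (distance 0.70), the membrane trafficking gene Ehd2 (0.90) and the transcription factor gene Cebpd (0.99). Prss23 had changes of -0.53 at 2 weeks (SE 0.083), -1.95 at 5 weeks (SE 0.17) and -2.25 in the clone (SE 0.082) in the authors' deposited tables. By value it was lower than Axl at both UV times and less low in the clone, and this order was not tested. Cebpd, unlike Axl, did not pass at 2 weeks (-0.36, SE 0.19), and it stood at -1.34 at 5 weeks (SE 0.26) and -1.76 in the clone (SE 0.23). For Erbb3 the nearest were the Wnt pathway repressor gene Tcf7l1 (distance 0.32), Kank4 (0.34) and Arl5a (0.37). Tcf7l1 stood at -0.84, -0.87 and -1.25 in the order of the comparisons above. These distances cover 3 comparisons with 1 control and are a description only.

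Pigment cell markers were present in the B16N tables, where 6 of 7 had values of their own. Of these, 4 were higher at 2 weeks, 5 at 5 weeks and 2 in the clone, where 1 was lower, alongside the lower Axl and Erbb3. Tyr, Tyrp1, Dct and Pmel were the 4 at 2 weeks, with Mlana added at 5 weeks. In the clone Pmel (0.92, SE 0.098) and Mlana (0.50, SE 0.11) were higher and Dct was lower (-0.61, SE 0.092). Tyr, Tyrp1 and Mitf did not pass there. Of all genes, 3.13%, 3.07% and 10.3% passed as higher in the 3 comparisons, and 4.55%, 1.71% and 11.6% as lower. Sox10, the seventh, shared its values with another symbol. Its row stood at 0.015 at 2 weeks (SE 0.097), -0.60 at 5 weeks (SE 0.15) and -0.24 in the clone (SE 0.11). Only the value at 5 weeks passed, as lower, and it cannot be assigned to Sox10 alone. Of the immune markers Lyz2 alone had values of its own, at 0.38 at 2 weeks (SE 0.94), 3.47 at 5 weeks (SE 0.70) and 2.78 in the clone (SE 0.64), of which the last 2 passed. No fibroblast, endothelial or keratinocyte marker had values of its own. The part of other cells in the changes of the receptor genes was not tested. In bulk RNA, a smaller share of cells that express a gene and less RNA per cell cannot be told apart.

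In the human melanoma lines WM983 and UACC257, both labelled week 2 of UV exposure against an untreated control of day 0, tables of 420 genes were used, and the 10 genes of the set were not analysed here. From the surrounding lists, PROS1, PTK7 and IGFBP2 had values. The direction of these tables was not given. PROS1, the protein S gene, had a deposited log2 value of 1.02 in WM983 (deposited p = 5e-05) and of -0.20 in UACC257 (deposited p = 0.142) in the authors' deposited tables. In the same tables of the authors the receptor-like gene PTK7 had 2.05 in WM983 (deposited p = 5e-05) and -0.015 in UACC257 (deposited p = 0.945), and IGFBP2 had 1.25 in WM983 (deposited p = 5e-05) and -0.37 in UACC257 (deposited p = 0.0467). How the 420 genes had been chosen was not checked here. PROS1, PTK7 and IGFBP2 all had the same deposited p in WM983. If the genes had been chosen by their change in WM983, low p-values there and weaker ones in UACC257 would follow from that choice. The difference between the lines was not tested, and none is read from these genes.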

How the data were processed

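RNA-seq of 8 samples had been compared in 5 tables, 3 for B16N and 2 for human lines. Per the file headers, the authors deposited for each gene symbol a log2 fold change, a statistic of their test (a score) and its p-value. The submitters' processing notes name GRCm38, a mouse genome build. The build on which the reads of the human lines were placed was not checked here. The sources used here do not name the aligner, the counting, the test or how many libraries each p-value rests on.

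The deposited log2 values of the mouse tables have the control on top: of the 1357 genes found in 1 mouse table alone, as when the treated sample had reads and the common control none, 1357 were deposited negative and 0 positive. Signs were therefore turned for the mouse tables and left for the human ones. The deposited p-value equalled the two-sided normal p of the score within 5.00e-08, so SE is the log2 change divided by the score. Rows without a symbol (1 per mouse table) or p-value (3 in the clone) were left out. Benjamini-Hochberg adjustment ran over each whole table, and differences between treated samples were tested with both SE added in squares, so the control's own spread enters each difference more than once. The columns used were those of the 5 comparisons, and per-sample levels were not used here.

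The members and lists were chosen with earlier results of these data known. Named genes were all members, up to 4 passing genes per list and comparison by size of change with an SE at most 1, and the 3 nearest genes to Axl and Erbb3. List genes of SE above 1, and the values of Pros1 and Mitf, of Yap1 where it did not pass, and of Dusp4 in the clone were added after their values were seen. Some genes that the rule would name are not reported here. The scripts were tested on simulated data. Alternatives were a 2-fold minimum, an adjusted p under 0.01, an SE at most 0.5, symbols of shared values left out or counted once, and the median change of genes of SE at most 0.3 set to 0. Python 3.11.15, numpy 2.4.6, pandas 2.3.3, scipy 1.17.1 and matplotlib 3.10.9 were used.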

Additional observations from a re-analysis of the deposited data

Results flagged for a closer look

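The change of Axl differed between UV times: the log2 change at 5 weeks minus that at 2 weeks in the authors' deposited tables was -1.10 (adjusted p = 9.07e-05). The row of Fgfr1, identical to that of Chac1, differed as well in the authors' deposited tables, by 2.30 (adjusted p = 1.06e-09), with a positive value at 5 weeks and a negative one at 2 weeks. Both stood out by the test of the difference between the UV samples, of which there was 1 at each time.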

How the results depend on the processing

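No paired analysis was possible because the labels give 1 sample per group, and for the same reason no sample could be left out. Axl kept its side of the threshold under all 6 alternatives at 5 weeks and in the clone, and at 2 weeks under the other 4 but not with a 2-fold minimum or an adjusted p under 0.01. Erbb3 no longer passed with a 2-fold minimum at 2 weeks and in the clone, where its change of -1.00 fell just short of it. With a 2-fold minimum, 0 members passed at 2 weeks, and with an adjusted p under 0.01 there was 1, Erbb3. With symbols of shared values left out, 1 member, Axl, differed between 5 and 2 weeks of UV and between the clone and 5 weeks. With an SE at most 0.5, 2 members differed between the clone and 2 weeks, Axl and the shared Fgfr1 row. Over all genes, 1124 passed at 2 weeks, and 51 with a 2-fold minimum. At 5 weeks 708 passed, and 269 with that minimum, and in the clone 3305 passed, and 1021 with it. Of the differences it left 163 of 469 (5 against 2 weeks), 353 of 764 (clone against 5 weeks) and 612 of 1646 (clone against 2 weeks). An adjusted p under 0.01 left 735 at 2 weeks, 430 at 5 weeks, 257 for 5 against 2 weeks and 494 for the clone against 5 weeks. Pax3, which did not pass at 2 weeks, was at 0.015 there with the median change set to 0, against -0.0084. Wide SE values limit what can be said of Mertk, Gas6, Met, Igf1r, Tyro3 and Erbb2, and the depth is unknown.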
